A study of Mus musculus with 10 samples.

Results

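Interferon-stimulated genes are the genes that a cell switches on when it meets interferon, the family of secreted proteins that warns tissues of viral infection. The 33 genes described here were taken by name from the expression table, from a list drawn up with earlier results of these data known, and they are 33 of the 55426 genes the table lists. Bulk RNA-Seq had been made from the thoracic aortas of 3 control mice, which carry the floxed *Prdm16* alleles without Cre (*Prdm16*f/f), and of 3 *Prdm16*SMKO mice, which carry the same floxed alleles and the *SMMHC*-CreERT2 transgene. This transgene puts a tamoxifen-inducible Cre under the promoter of smooth muscle myosin heavy chain, so recombination is directed to smooth muscle, and the other cells of the aortic wall keep *Prdm16*. The transgene sits on the Y chromosome, the mice were male and on the C57BL/6J background, and tamoxifen had been given by mouth at 75 mg/kg/day for 5 days from 8 weeks of age, followed by a washout of 2 weeks. Whether the control mice also received tamoxifen, the age at harvest, and the time of day are not given in the sources used here. The second assay was ChIP-Seq with an anti-Flag antibody in primary vascular fibroblasts that carried Flag-tagged PRDM16 or the empty vector, delivered by lentivirus over 48 hours, and had then been kept under puromycin (2 μg/mL) for 1 week. It gave 1 peak list per condition, without replicates.

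Type I interferons bind the receptor chains IFNAR1 and IFNAR2, the kinases JAK1 and TYK2 pass the signal on, and a complex that holds STAT2 and IRF9 binds a DNA element called the interferon-stimulated response element (ISRE). Interferon γ acts through its own receptor and a different DNA element, the γ-activated sequence (GAS). The genes they switch on encode proteins that sense, bind, or destroy viral nucleic acid, block viral budding, attack vacuoles that hold pathogens, and damp the signal again. PRDM16 is a zinc finger transcription factor known for brown fat identity, and in adipocytes it is known as a repressor of type I interferon-responsive genes. In the aortas compared here, *Prdm16* itself had a TPM (a level scaled to transcript length and library size) of 23.3, 33.3, and 23.4 in *Prdm16*SMKO and 56.1, 47.6, and 40.3 in control aortas. No *Prdm16*SMKO value reached the control range, and the difference of −0.85 ± 0.18 (SE) on the log2 scale had an adjusted *P* of 0.0725 by limma. Smooth muscle genes were abundant in every library, with a summed TPM over 6 genes of 20649 to 24074 in control and 13730 to 17732.5 in *Prdm16*SMKO aortas.

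The DNA letters that interferon signaling reads were present in the promoters of many of these genes. RefSeq promoter sequences (GRCm38.p6, 250 bases before to 50 after the transcription start) were at hand for 24 of the 33 genes, with 28 promoters. The other 9 were *Usp18*, *Iigp1*, *Zbp1*, *Mx1*, *Mx2*, *Rtp4*, *Oas2*, *Dhx58*, and *Parp14*. The core of the ISRE was searched on either strand as GAAA, any 2 bases, and GAAA again. It was found in 16 of these 24 genes (66.7%) and in 16 of their 28 promoters (57.1%). Of the 32851 promoters of all genes, 3.44% held it. The GAS letters, searched as TTC, any 3 bases, and GAA, read the same on both strands. They were found in 8 of the 24 genes (33.3%) and in 8 of the 28 promoters (28.6%), compared with 8.3% of all promoters. The 25 ISRE matches began between 2 and 222 bases from the start site, and neighboring matches may share a GAAA. A few promoters are given here in the direction of transcription, 5′ to 3′, with each ISRE match in capitals. *Ifit3*, *Oas1a*, *Bst2*, and *Gbp3* are shown as the genes with a match whose expression did not overlap between the groups (*Irf7* and *Oasl2* did not overlap either and had no match), *Isg15* because it had the most matches, and *Ifit2* because it had no match and 242 of its 300 bases lay inside a PRDM16 peak.
Ifit3 (chr19:34583279-34583578, plus strand): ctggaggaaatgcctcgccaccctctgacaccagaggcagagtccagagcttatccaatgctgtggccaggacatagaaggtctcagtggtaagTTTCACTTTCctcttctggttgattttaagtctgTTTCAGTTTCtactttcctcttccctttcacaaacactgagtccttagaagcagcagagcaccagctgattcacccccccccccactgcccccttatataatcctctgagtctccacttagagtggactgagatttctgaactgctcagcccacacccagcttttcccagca
Oas1a (chr5:120907476-120907775, minus strand): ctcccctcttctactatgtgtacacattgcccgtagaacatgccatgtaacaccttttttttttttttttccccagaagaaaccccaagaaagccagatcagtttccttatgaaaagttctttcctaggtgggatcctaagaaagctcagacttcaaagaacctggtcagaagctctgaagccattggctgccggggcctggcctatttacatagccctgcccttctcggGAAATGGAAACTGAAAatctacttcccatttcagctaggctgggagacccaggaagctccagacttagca
Bst2 (chr8:71537423-71537722, minus strand): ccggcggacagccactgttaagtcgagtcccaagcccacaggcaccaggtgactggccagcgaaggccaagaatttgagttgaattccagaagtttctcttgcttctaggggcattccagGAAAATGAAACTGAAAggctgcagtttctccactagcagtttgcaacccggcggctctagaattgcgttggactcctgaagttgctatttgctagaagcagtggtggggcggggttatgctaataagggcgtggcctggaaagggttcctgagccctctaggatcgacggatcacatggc
Gbp3 (chr3:142559794-142560093, plus strand): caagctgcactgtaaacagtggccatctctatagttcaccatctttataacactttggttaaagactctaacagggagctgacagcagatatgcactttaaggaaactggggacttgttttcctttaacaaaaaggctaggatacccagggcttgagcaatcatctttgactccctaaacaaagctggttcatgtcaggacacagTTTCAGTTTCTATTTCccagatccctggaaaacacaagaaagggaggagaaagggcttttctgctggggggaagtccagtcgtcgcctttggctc
Isg15 (chr4:156200769-156201068, minus strand): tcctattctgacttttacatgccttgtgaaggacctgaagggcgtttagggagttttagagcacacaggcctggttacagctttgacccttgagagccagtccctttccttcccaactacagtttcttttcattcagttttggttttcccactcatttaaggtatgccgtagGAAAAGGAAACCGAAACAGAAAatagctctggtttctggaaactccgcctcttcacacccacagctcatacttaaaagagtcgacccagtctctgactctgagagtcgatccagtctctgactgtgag
Ifit2 (chr19:34550838-34551137, plus strand): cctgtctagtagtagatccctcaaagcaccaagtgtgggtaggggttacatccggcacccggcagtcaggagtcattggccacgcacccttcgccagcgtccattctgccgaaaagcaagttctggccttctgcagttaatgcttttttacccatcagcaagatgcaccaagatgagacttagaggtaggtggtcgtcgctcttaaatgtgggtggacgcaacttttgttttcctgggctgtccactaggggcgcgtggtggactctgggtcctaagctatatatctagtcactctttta
In *Ifit3* the matches began 156 and 122 bases before the start site. In *Oas1a* (20 and 14 bases), *Bst2* (130 and 124 bases), *Gbp3* (45 and 39 bases), and *Isg15* (78, 72, and 66 bases) they overlapped and formed an unbroken run. In *Bst2* a GAS match shared its last letters with the first ISRE match. A match is a description of the letters and does not show that a factor binds there.

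By the genome-wide test used here, no interferon-stimulated gene differed between the groups at the threshold, although most were somewhat higher in *Prdm16*SMKO aortas. The study, by a test it does not name, lists *Oasl2* as upregulated among its differentially expressed genes with PRDM16 promoter binding. Of the 33 genes, 31 had a mean TPM of at least 0.5 over the 6 aortas and were tested. By limma on log2(TPM + 0.1), adjusted over 15668 genes, 0 of 31 were called higher and 0 were called lower at an adjusted *P* under 0.05, compared with 61 (0.389%) and 107 (0.683%) of all genes tested. At an unadjusted *P* under 0.05, 7 were higher (*Ifit3*, *Rtp4*, *Oasl2*, *Bst2*, *Irf7*, *Gbp3*, and *Oas2*; 22.6%) and 0 were lower, where the share of all genes was 3.22% higher and 9.45% lower. In 9 genes (29.0%) every *Prdm16*SMKO aorta was above every control aorta, and in 0 genes every one was below, where the share of all genes was 4.08% and 14.9%. *Oas1a*, *Oas2*, and *Zbp1* reached the mean TPM of 0.5 only through the *Prdm16*SMKO group. Without them, the 9 genes without overlap become 7. *Oas2* is also among the 7 genes at an unadjusted *P* under 0.05, and all 3 stay in the counts of log2 fold changes that follow. The log2 fold change was above 0 in 26 of 31 genes (83.9%), whereas 32.1% of all genes were above 0.

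The median log2 fold change was 0.27 over the 31 genes and −0.12 over all genes tested. Since the median gene was below 0, each gene can also be read against it, and 30 of 31 were above the median gene, 21 were above the 75th percentile of all genes (0.06), and 14 were above the 90th percentile (0.35). None was below the 25th percentile (−0.28). After rescaling by the median ratio, which brought the median of all genes to 0.00458, the median of the 31 genes was 0.39 and 30 were above 0. The smallest adjusted *P* was then 0.0511, for *Ifit3*, so that again 0 were called. Leaving out control replicate 1 gave the single call found, *Ifit3*, with an adjusted *P* of 0.0455 by limma. The count at an unadjusted *P* under 0.05 fell from 7 to 3 without *Prdm16*SMKO replicate 1 or without control replicate 3 and to 4 without control replicate 2. With 3 aortas per group, an exact 2-sided permutation test of a single gene cannot go below a *P* of 0.1.

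**Figure D1:**
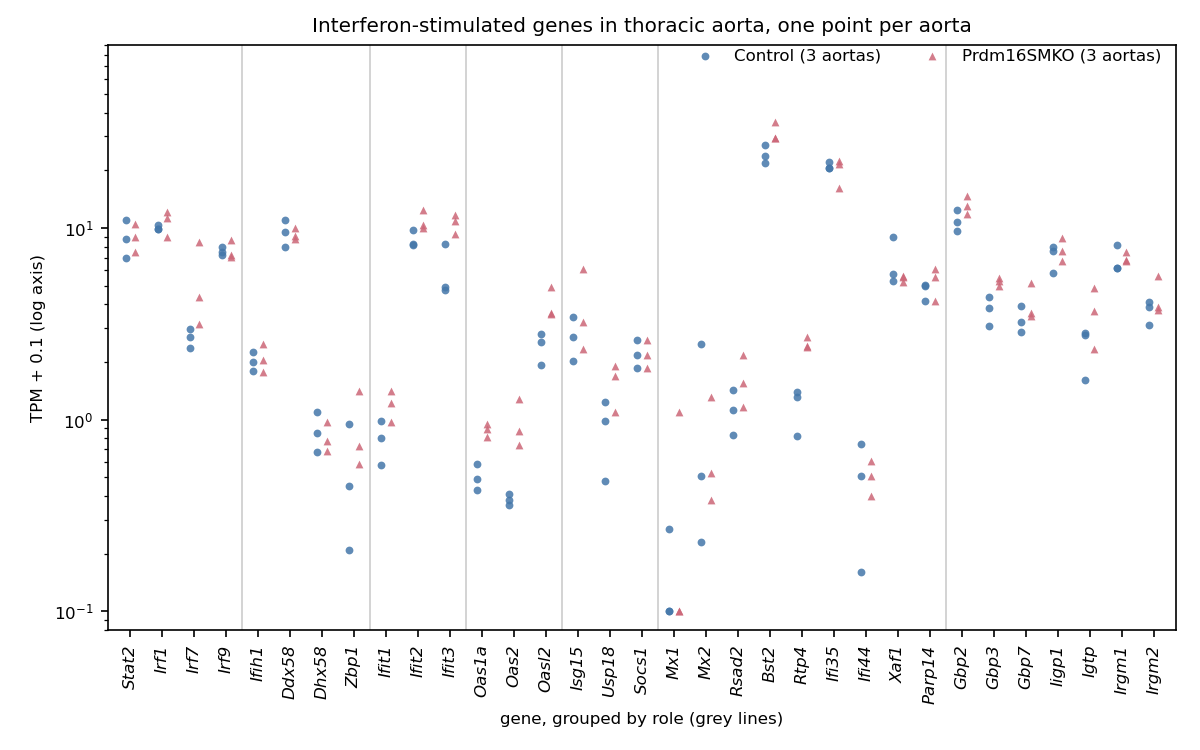
TPM + 0.1 (log axis) of the 33 interferon-stimulated genes in each aorta, with circles for the 3 control and triangles for the 3 Prdm16SMKO aortas and grey lines between roles. Bst2 and Ifi35 were the most abundant, and the groups did not overlap in 9 tested genes, among them Rtp4 and Oasl2.

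**Figure D2:**
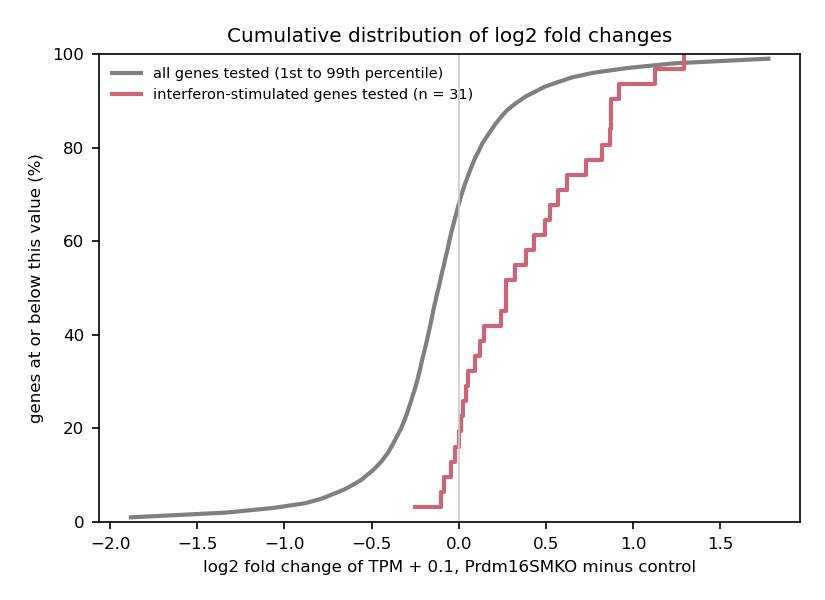
Cumulative share of genes (%) by log2 fold change of TPM + 0.1, Prdm16SMKO minus control, for the 31 interferon-stimulated genes tested and for all genes tested from the 1st to the 99th percentile. The curve of the interferon-stimulated genes lies to the right, with a median of 0.27 compared with −0.12.

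The levels of the 33 genes spanned a wide range, from *Bst2* with a mean TPM of 27.8 over the 6 aortas to *Mx1* with 0.195. Summed over the 33 genes, the TPM of the *Prdm16*SMKO aortas was 204, 190, and 182, and that of the control aortas 173, 164, and 150, with means of 192 ± 11.2 and 162 ± 11.7 (SD, n = 3 each). The lowest *Prdm16*SMKO sum was thus above the highest control sum. The aortas did not contribute equally, since *Prdm16*SMKO replicate 1 held the highest value for 14 of the 33 genes and control replicate 3 the lowest value for 17. In bulk tissue, a change in the number of cells of one type and a change in RNA per cell cannot be told apart.

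Among the transcription factors, the level of *Irf7*, which amplifies the type I interferon response, was set apart between the groups, and that of the other 3 was not. The TPM of *Irf7* was 2.27, 2.59, and 2.87 in control and 4.28, 8.33, and 3.05 in *Prdm16*SMKO aortas. Replicate 2 was far above the other *Prdm16*SMKO aortas, and replicate 3 was only just above the highest control. The log2 difference was 0.87 ± 0.34 (SE), with an adjusted *P* of 0.326. *Irf1*, which is induced by interferon γ and was the most abundant of the 4, had a TPM of 10.2, 9.82, and 9.82 in control and 11.2, 8.88, and 12.02 in *Prdm16*SMKO aortas. Its groups overlapped, and the log2 difference was 0.09 ± 0.16 (adjusted *P* = 0.85). *Stat2* and *Irf9*, subunits of the complex that binds the ISRE, had log2 differences of 0.02 and 0.01. Both signs depended on single aortas, as *Stat2* was below 0 without *Prdm16*SMKO replicate 2 or control replicate 3, and *Irf9* without *Prdm16*SMKO replicate 1 or control replicate 2.

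The cytosolic sensors showed no separation. *Ddx58*, which encodes RIG-I, a sensor of viral RNA, was the most abundant, with a TPM of 10.9, 9.41, and 7.87 in control and 8.70, 9.86, and 9.02 in *Prdm16*SMKO aortas. All *Prdm16*SMKO values lay inside the control range. Its log2 difference was −0.02 ± 0.17 (adjusted *P* = 0.977). *Ifih1*, the RNA sensor MDA5, had a log2 difference of 0.05, *Dhx58*, its regulator LGP2, −0.10, and *Zbp1*, a sensor of Z-form nucleic acid, 0.92. The value for *Zbp1* came with the wide SE of 0.71, since the gene had a TPM of 0.11 to 1.31 and its groups overlapped. The signs of *Ddx58* and *Dhx58* turned after rescaling by the median ratio, and that of *Ifih1* turned without *Prdm16*SMKO replicate 1 or control replicate 2.

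The IFIT genes, whose products bind foreign RNA and block its translation, were all higher in mean in *Prdm16*SMKO aortas. *Ifit3* (ENSMUSG00000074896, chr19:34583531-34588731 on GRCm38) had the smallest adjusted *P* of the 31 tested genes. Its TPM was 8.17, 4.63, and 4.82 in control and 9.17, 10.8, and 11.6 in *Prdm16*SMKO aortas. These values did not overlap, but control replicate 1 was close to the lowest *Prdm16*SMKO aorta. The mean was 1.79-fold higher (5.87 ± 1.99 vs. 10.5 ± 1.24, SD, n = 3 each), and the log2 difference of 0.87 ± 0.23 had an adjusted *P* of 0.145 by limma. *Ifit2* had a TPM of 9.68, 8.14, and 8.03 in control and 9.85, 10.3, and 12.3 in *Prdm16*SMKO aortas. These groups were separated by the narrow step between 9.68 and 9.85, and the log2 difference was 0.32 ± 0.16 (adjusted *P* = 0.444). *Ifit1*, at a TPM under that of its relatives, ranged from 0.48 to 0.89 and from 0.87 to 1.31 and had a log2 difference of 0.62 ± 0.42 (adjusted *P* = 0.573). *Ifit3* has a near-identical neighboring copy, *Ifit3b*, so reads could be split between them. The TPM of *Ifit3b* was 2.52, 1.41, and 0.95 in control and 3.21, 3.30, and 3.19 in *Prdm16*SMKO aortas, also without overlap (log2 difference 1.05 ± 0.34, adjusted *P* = 0.235).

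*Oasl2*, *Oas2*, and *Oas1a* belong to the OAS family, enzymes and relatives of enzymes that make the second messenger for the antiviral RNase L, and were separated between the groups. Other OAS genes outside the 33, *Oas1b*, *Oas3*, *Oasl1*, and *Oas1g*, overlapped, with *Oas1b* at a TPM of 0.30 to 1.13 in control and 0.69 to 1.49 in *Prdm16*SMKO aortas. *Oasl2* was the most abundant, with a TPM of 2.7, 2.44, and 1.82 in control and 4.81, 3.45, and 3.48 in *Prdm16*SMKO aortas. The mean was 1.69-fold higher, and the log2 difference was 0.73 ± 0.24 (adjusted *P* = 0.25 by limma). The study, by its own unnamed test, lists *Oasl2* as upregulated. *Oas2* had a TPM of 0.28, 0.31, and 0.26 in control and 1.18, 0.64, and 0.77 in *Prdm16*SMKO aortas. All control values were lower than every *Prdm16*SMKO value, and all were under a TPM of 0.5. The log2 difference was 1.29 ± 0.54 (adjusted *P* = 0.367), and it was 0.53 with a pseudocount of 1. *Oas1a* had a TPM of 0.33, 0.39, and 0.49 in control and 0.79, 0.85, and 0.71 in *Prdm16*SMKO aortas. Its log2 difference was 0.82 ± 0.49 (adjusted *P* = 0.525), and it was 0.35 with a pseudocount of 1. *Oas1a* lies in a cluster of closely related copies, so its values are uncertain in the same way.

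ISG15 is a ubiquitin-like protein attached to other proteins after interferon, USP18 removes it and blocks the type I receptor, and SOCS1 inhibits JAK kinases. *Isg15* had a TPM of 2.59, 3.35, and 1.93 in control and 6.04, 3.12, and 2.25 in *Prdm16*SMKO aortas. Only replicate 1 of the *Prdm16*SMKO aortas was above the control range. The log2 difference was 0.43 ± 0.37 (adjusted *P* = 0.659). *Usp18* ranged from 0.38 to 1.13 in control and from 1.00 to 1.81 in *Prdm16*SMKO aortas, with a log2 difference of 0.87 ± 0.46 (adjusted *P* = 0.474) that was 0.47 without control replicate 3. *Socs1* had the same mean TPM, 2.11, in both groups.

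Among the antiviral effectors, *Bst2* and *Rtp4* were separated between the groups, and the other 7 were not. *Bst2* (ENSMUSG00000046718, chr8:71534255-71537456) encodes tetherin, which holds budding virus at the cell surface, and it was the most abundant of the 33 genes. Its TPM was 27.0, 23.5, and 21.8 in control and 35.8, 29.3, and 29.5 in *Prdm16*SMKO aortas. Every *Prdm16*SMKO aorta was above the highest control, and the mean was 1.31-fold higher. The log2 difference was 0.39 ± 0.14 (adjusted *P* = 0.293). *Rtp4* (ENSMUSG00000033355, chr16:23520291-23614222), a receptor transporter protein gene induced by interferon, had a TPM of 0.72, 1.22, and 1.3 in control and 2.61, 2.32, and 2.3 in *Prdm16*SMKO aortas. The *Prdm16*SMKO values lay close together and all above control, with a 2.23-fold higher mean. The log2 difference of 1.13 ± 0.31 had an adjusted *P* of 0.161.

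The remaining effectors overlapped. *Rsad2*, which encodes viperin, had a log2 difference of 0.52 ± 0.38, and *Parp14*, an ADP-ribosyltransferase gene, one of 0.14 ± 0.20. *Ifi35* was the second most abundant gene of the list, with a TPM of 20.3 to 22.0 in control and 16.01 to 22.3 in *Prdm16*SMKO aortas and a log2 difference of −0.08 ± 0.16. *Xaf1*, which encodes an antagonist of the inhibitor of apoptosis XIAP, had the lowest log2 difference, −0.25 ± 0.22 (adjusted *P* = 0.673). It was the only tested gene of the list to stay below 0 under every alternative run, between −0.40 and −0.02. *Mx1*, *Mx2*, and *Ifi44* were near the limit of the table. The Mx genes are known to be defective in C57BL/6 mice. *Mx1* was listed at 0 in 4 of the 6 aortas, at 0.17 in control replicate 2, and at 1.00 in *Prdm16*SMKO replicate 3, and was not tested. *Ifi44* had a TPM of 0.06 to 0.65 and was not tested either. *Mx2* ranged from 0.13 to 2.39, its highest value in control replicate 2, and had a log2 difference of −0.05 ± 0.91. The signs of *Ifi35* and *Mx2* turned after rescaling by the median ratio.

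The interferon-inducible GTPases take part in the defense against bacteria and parasites held in vacuoles. Their 7 members all had a log2 difference above 0, although those of *Iigp1* and *Irgm1* turned when single aortas were left out. *Gbp2*, a guanylate-binding protein gene, was the most abundant, with a TPM of 12.3, 10.6, and 9.50 in control and 14.6, 12.9, and 11.7 in *Prdm16*SMKO aortas. Replicate 3 of the *Prdm16*SMKO aortas lay inside the control range. The log2 difference was 0.27 ± 0.16 (adjusted *P* = 0.517). *Gbp3* was the one GTPase without overlap, with a TPM of 2.99, 4.25, and 3.71 in control and 5.16, 4.87, and 5.40 in *Prdm16*SMKO aortas. Its mean was 1.41-fold higher, and the log2 difference was 0.50 ± 0.19 (adjusted *P* = 0.332). *Gbp7* (0.27), *Igtp* (0.57), *Irgm2* (0.24), *Iigp1* (0.12), and *Irgm1* (0.04) had log2 differences above 0 with overlapping groups, which turned below 0 for *Iigp1* without control replicate 3 and for *Irgm1* without *Prdm16*SMKO replicate 1, control replicate 2, or control replicate 3. The guanylate-binding genes form a cluster of related copies, and the gene models of *Igtp* and *Irgm2* overlap, so reads may have been shared within each set.

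**Figure D3:**
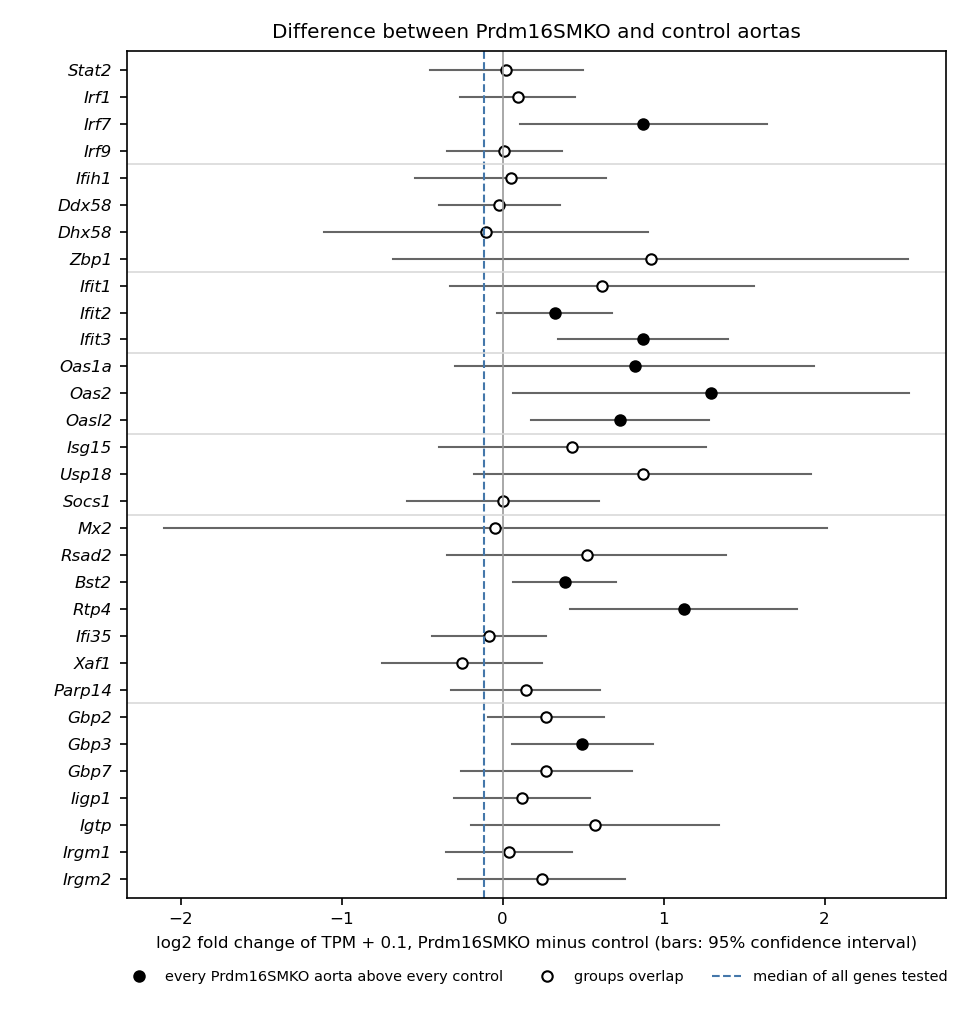
Log2 fold change of TPM + 0.1, Prdm16SMKO minus control, of the 31 tested genes with 95% confidence intervals, grouped by role from transcription factors at the top to interferon-inducible GTPases at the bottom. Filled points mark the 9 genes whose groups did not overlap, all to the right of 0, and the dashed line marks the median of all genes tested, −0.12.

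The rest of the pathway was read from lists of 98 names, of which 96 were in the table and 75 genes were tested, and 0 of 75 were called in either direction. At an unadjusted *P* under 0.05, 3 were higher (4.0%) and 5 were lower (6.67%), near or below the shares of all genes, 3.22% and 9.45%. Without overlap between the groups, 3 were higher (4.0%) and 6 were lower (8.0%), where the shares of all genes were 4.08% and 14.9%. The ligands were almost absent, since 11 of 12 interferon genes, among them *Ifnb1* and *Ifng*, were listed at 0 in all 6 aortas. The other, *Ifnk*, was listed at 0.17 in *Prdm16*SMKO replicate 3 and at 0 elsewhere. Of the receptors, 5 of 6 genes were tested. *Ifngr2*, the most abundant, had a TPM of 27.9 to 36.4 in control and 28.3 to 38.2 in *Prdm16*SMKO aortas. *Ifnar2*, a chain of the type I receptor, had a TPM of 30, 36, and 27.7 in control and 24.0, 21.8, and 26.1 in *Prdm16*SMKO aortas. Its groups did not overlap, and it was lower, with a log2 difference of −0.37 ± 0.14 (adjusted *P* = 0.317). *Ifnlr1*, the receptor gene under the filter, was also lower without overlap, at a TPM of 0.51 to 0.74 in control and 0.16 to 0.41 in *Prdm16*SMKO aortas.

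The 4 kinase and STAT genes had log2 differences below 0, as did 67.9% of all genes. *Stat3*, the most abundant, had a TPM of 39.4 to 43.2 in control and 32.2 to 38.3 in *Prdm16*SMKO aortas, without overlap, and a log2 difference of −0.23 ± 0.12 (adjusted *P* = 0.464). *Jak1* had a log2 difference of −0.16. Of 5 other IRF genes, 4 had a log2 difference above 0, including *Irf3* (0.20), the factor that first induces interferon. Of 10 tested genes that act upstream of interferon, 3 had a log2 difference above 0, and the kinase gene *Tbk1* (0.12) and the adaptor gene *Mavs* (−0.15) were the most abundant. Among the 3, *Tlr7* reached the mean TPM of 0.5 only through the *Prdm16*SMKO group (mean 0.213 in control and 0.903 in *Prdm16*SMKO aortas). The adaptor gene *Traf3* was the only 1 of the 10 without overlap, and it was lower (−0.37, adjusted *P* = 0.319). Among 9 tested inhibitor genes, *Ptpn11* (−0.30) and *Ptpn2* (−0.42), which encode phosphatases, were lower without overlap, with adjusted *P* values of 0.332 and 0.215.

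A further list held 49 interferon-stimulated genes outside the 33, and 42 were tested. Their median log2 fold change was 0.21, and 31 of 42 (73.8%) were above 0, compared with 32.1% of all genes, but 0 were called. Among the 31, *Epsti1* reached the mean TPM of 0.5 only through the *Prdm16*SMKO group (mean 0.453 in control and 0.617 in *Prdm16*SMKO aortas). At an unadjusted *P* under 0.05 by limma, *Ifi203*, a member of the PYHIN family, and *Ifit3b* were higher (4.76%), and *Samd9l*, an antiviral gene, was lower (2.38%). The shares of all genes were 3.22% higher and 9.45% lower. *Slfn8*, *Ifit3b*, and *Ifi204* were higher without overlap (7.14%, compared with 4.08% of all genes). *Samd9l* was lower without overlap (2.38%, compared with 14.9%), with a TPM of 12.1, 11.5, and 11.5 in control and 8.62, 8.19, and 9.26 in *Prdm16*SMKO aortas. The most abundant genes of the list, *Ifitm2* and *Ifi27*, had overlapping groups and log2 differences of −0.18 and −0.11.

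Markers of immune cells were compared because interferon-stimulated genes are abundant in many leukocytes. The 3 MHC class II chain genes and *Cd74*, all 4 typical of antigen-presenting cells and induced by interferon γ, had a summed TPM of 33.1 to 44.4 in control and 59.3 to 122 in *Prdm16*SMKO aortas. None of the 4 overlapped between the groups, and *H2-Eb1* was called higher by limma (log2 difference 1.16 ± 0.22, adjusted *P* = 0.0497). In the study's own list, *H2-Ab1* is upregulated. The 5 other genes of this list (*Ciita* and the dendritic cell markers *Flt3*, *Xcr1*, *Clec9a*, and *Siglech*) overlapped at a TPM of 0 to 0.66 and were not tested. *Prdm16*SMKO replicate 1, which most often held the highest value of the interferon-stimulated genes, also had the highest sum of the MHC class II chains and *Cd74*. Its summed TPM of endothelial markers, 149, was the highest too, compared with 68.8 to 121 in the other aortas. The sums of the other marker lists were highest in other aortas. The largest gene of replicate 1 took 28.2% of its TPM, compared with 20.2% to 23.4% elsewhere. Of 9 tested macrophage markers 0 were called and 0 were separated, with sums of 108 to 144 and 94.7 to 138. Of 12 markers of T, B, and NK cells, 0 reached a mean TPM of 0.5, and 2 (*Klrb1c* and *Ncr1*) were listed at 0 in all aortas. No *Prdm16*SMKO aorta reached the smooth muscle sum of the lowest control. Of the 6 genes, 4 were lower without overlap (66.7%, compared with 14.9% of all genes), and 0 were called. The part of these other genes in the differences of the interferon-stimulated genes was not tested.

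**Figure D4:**
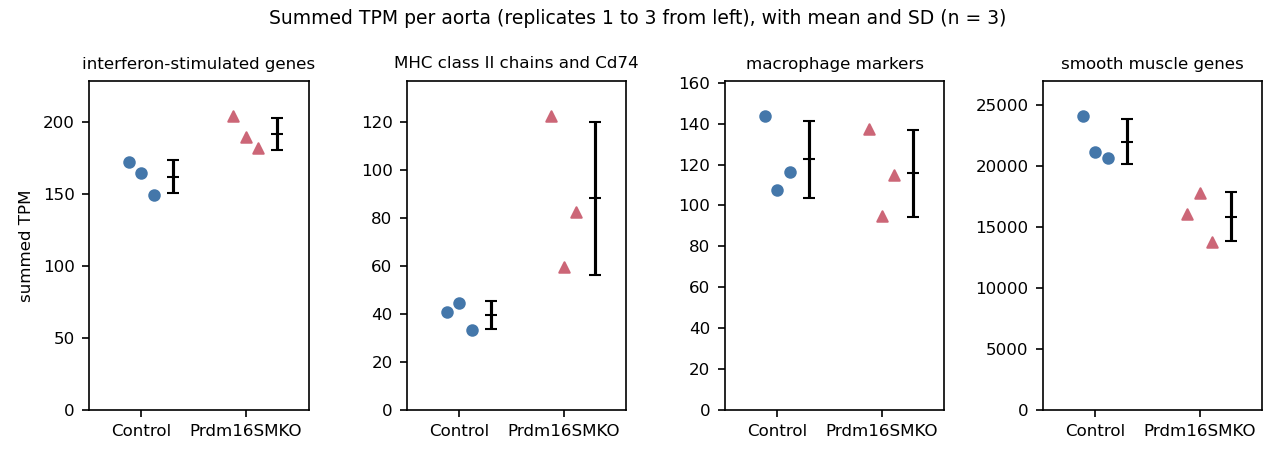
Summed TPM per aorta for the 33 interferon-stimulated genes, the MHC class II chains with Cd74, the macrophage markers, and the smooth muscle genes, with points for replicates 1 to 3 and the mean with SD (n = 3 each) beside them. The first 2 sums were higher and the smooth muscle sum was lower in all 3 Prdm16SMKO aortas, and the macrophage sums overlapped.

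PRDM16 peaks in fibroblasts lay near few of these promoters. With the centre of a peak within 2 kb of a curated RefSeq transcription start, 7 of 33 genes (21.2%) had a promoter peak: *Bst2*, *Ifih1*, *Ifit2*, *Irgm1*, *Oasl2*, *Parp14*, and *Socs1*. This share is near that of all 26180 RefSeq genes, of which 6818 (26.0%) had one. Of the 13142 genes that were tested in the aorta and had a curated start, 43.3% had one, compared with 22.6% of the 31 tested interferon-stimulated genes. In a window from 1 kb upstream to 100 bp downstream, the count was 3 (*Ifit2*, *Irgm1*, and *Socs1*). In that window 9.11% of all RefSeq genes had a peak. Placed by the nearest start site, 6 of the 9 peaks lay downstream. The *Ifit2* peak had 2 start sites in its window and lay upstream of the nearer and downstream of the other. None of the 33 genes had a promoter peak in the vector list, which held 67 peaks in all, compared with 11271 in the PRDM16 list.

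The 9 peaks were 234 to 869 bp long, and their fold enrichment over the local background, as deposited, was 3.87 to 9.84, where the median of all PRDM16 peaks was 5.27. *Socs1* had the strongest, with a peak of 9.84-fold centred 918 bp downstream of the start and one of 8.44-fold centred 512.5 bp upstream. The first was higher than 96.5% of all peaks in the list. *Parp14* (6.33-fold) had the only peak that covered the start site. *Ifih1* (5.98-fold), *Oasl2* (5.27-fold), *Bst2* (4.96-fold), and *Ifit2* (4.92-fold) were near the median, and the peaks of *Irgm1* (4.57-fold and 3.87-fold) were below it. The sequences around a few summits follow, read on the plus strand of GRCm38.p6, 61 bases each with the summit base in capitals. They were chosen as the strongest pair, the peak over a start site, and the peaks of the separated genes *Bst2* and *Oasl2*.
Socs1 summit (chr16:10784700-10784760, plus strand): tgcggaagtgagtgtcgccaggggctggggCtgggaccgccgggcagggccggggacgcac
Socs1 summit (chr16:10785891-10785951, plus strand): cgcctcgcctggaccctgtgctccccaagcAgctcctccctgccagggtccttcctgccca
Parp14 summit (chr16:35871208-35871268, plus strand): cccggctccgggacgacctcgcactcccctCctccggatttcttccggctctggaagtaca
Bst2 summit (chr8:71537209-71537269, plus strand): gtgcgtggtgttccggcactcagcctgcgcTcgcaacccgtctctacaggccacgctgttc
Oasl2 summit (chr5:114897743-114897803, plus strand): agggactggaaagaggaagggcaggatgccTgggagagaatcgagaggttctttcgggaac
The first *Socs1* summit and the summits of *Parp14*, *Bst2*, and *Oasl2* lay in exons of the gene by RefSeq, and the second *Socs1* summit lay outside the gene. Within 150 bp on either side of the summit, the ISRE core was found at 0 of the 9 peaks, compared with 1.54% of 11258 PRDM16 summits, and the GAS letters at 3 of 9, compared with 5.41%. Farther from its summit, the *Oasl2* peak held 2 ISRE matches, and the other 8 peaks held 0.

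**Figure D5:**
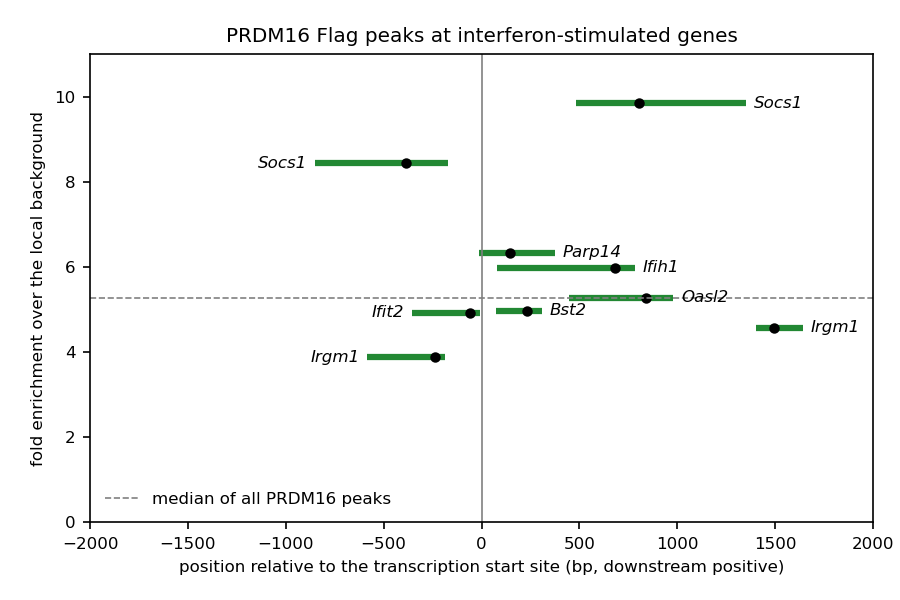
PRDM16 Flag peaks at interferon-stimulated genes by position relative to the transcription start site (bp, downstream positive) and fold enrichment over the local background, with bars for the length of each peak and points for its summit. Of the 9 peaks, 3 lay upstream and 6 downstream of the nearest start site, and the pair at Socs1 was the strongest.

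Peaks and expression were set side by side, without a test. The 7 genes with a promoter peak had a median log2 fold change of 0.14 in the aorta, and the 24 tested genes without one had a median of 0.35. Of the 9 genes whose groups did not overlap, 3 had a peak (*Bst2*, *Ifit2*, and *Oasl2*), as did 4 of the other 22 tested genes. *Socs1*, with the strongest peaks, had a log2 difference of 0.00 with a SE of 0.26. *Ifit3*, *Rtp4*, and *Oas2*, with some of the largest differences, had their nearest PRDM16 peaks 32.6, 90.8, and 30.9 kb from the RefSeq start site. For *Rtp4* that start, at 23609919, lies far inside the gene model given above, which begins at 23520291. The nearest peak of *Rtp4* lies upstream of the beginning of that model and within 2 kb of it. Its distance, and the place of *Rtp4* among the genes without a promoter peak, thus depend on the annotation. The study assigns this peak to another gene, *Masp1*. Over the 26 genes without a promoter peak, the nearest peak was 2.72 kb (*Isg15*) to 464 kb (*Ddx58*) away, with a median of 51.1 kb. An ISRE core was found in 4 of the 7 separated genes that had a promoter sequence and in 12 of the other 17 genes. The peaks came from fibroblasts with added PRDM16 and the expression from whole aortas after its deletion in smooth muscle, and no peak value has a replicate.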

How the data were processed

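TPM per aorta were deposited by the authors. Per the labels, the libraries were poly(A)-selected, and the submitters' processing notes name STAR 2.7.8a, RSEM 1.3.3, and cutadapt 2.3. The annotation is not given in the sources used here, and the depth per aorta is unknown. ChIP-Seq reads had been aligned to GRCm38 with bowtie2 by the authors, who called peaks with MACS2 at a q of 0.01 with the genome size preset for human (-g hs). They deposited, for each peak, the fold enrichment (a ratio to local background) and −log10 q, without read counts. IgG libraries were not used here.

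The aortas were grouped by the titles of the samples, and table columns named WT were read as the control mice. The study gives 3 mice per group. A gene was tested if its mean TPM over the 6 aortas was 0.5 or more. The test was limma 3.58.1 in R 4.3.3 (lmFit and eBayes, trend = TRUE) on log2(TPM + 0.1), without covariates. Fold changes on this scale understate the change of low genes. *P* values were adjusted by Benjamini-Hochberg across 15668 genes, with a threshold of 0.05. The sources used here name no test for the RNA-Seq.

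The 33 genes, by a rule on names alone, and all lists were chosen with earlier results of these data known. One gene of the pathway lists is not reported here, and the counts leave it out. Values per aorta are given for genes whose groups did not overlap and for the most abundant gene of each role, and the other genes are given by range, counts, or log2 difference. Pathway lists are described by their counts, their most abundant genes, and the genes without overlap. Start sites, exons, and promoters are from RefSeq (GRCm38.p6). Python 3.11.15, pandas 2.3.3, and matplotlib 3.10.9 were used.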

Additional observations from a re-analysis of the deposited data

How the results depend on the processing

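TPM hold no depth per aorta, so no counting error can be given for any value. The count of called interferon-stimulated genes was 0 under the pseudocounts of 1 and 0.01, the filters, both scalings, eBayes without a trend, the replicate block, and protein-coding genes alone, and from 0 to 1 when each aorta was left out in turn. The median log2 fold change of the genes ranged from 0.17 to 0.39 over all alternatives. Of 455 values of single interferon-stimulated genes under the alternatives, 426 kept their direction and their side of the threshold, 28 turned sign, and 1 (*Ifit3* without control replicate 1) passed the threshold. The adjusted *P* of *Prdm16* by limma was 0.0239 to 0.23 and under the threshold in 4 alternatives. The number of all genes called, 168, became 110 without a TPM filter, 413 after rescaling by the median ratio, 392 after quantile normalization, 48 without a trend, 293 with protein-coding genes alone (an alternative chosen after seeing the data), and 91 to 141 with 1 aorta left out. Of the called genes, 36.3% were higher in the values as reported, 48.4% after rescaling, 48.2% after quantile normalization, and 50% without a trend. Log2 fold changes near 0 turned sign. After rescaling by the median ratio they were 0.10 for *Ddx58*, 0.00669 for *Dhx58*, 0.063 for *Mx2*, and 0.038 for *Ifi35*, after quantile normalization 0.080 for *Ddx58*, 0.0014 for *Mx2*, and 0.028 for *Ifi35*, and with a pseudocount of 0.01 it was 0.051 for *Mx2*. With 1 aorta left out, the range was −0.14 to 0.19 for *Stat2*, −0.079 to 0.063 for *Irf9*, −0.077 to 0.17 for *Ifih1*, −0.14 to 0.092 for *Ddx58*, −0.27 to 0.077 for *Dhx58*, −0.12 to 0.13 for *Socs1*, −0.81 to 0.33 for *Mx2*, −0.17 to 0.065 for *Ifi35*, −0.021 to 0.21 for *Iigp1*, and −0.027 to 0.17 for *Irgm1*. Other genes kept their sign but moved by over 1.5 times, with ranges among them of 0.48 to 1.19 for *Irf7*, 0.37 to 1.46 for *Zbp1*, 0.048 to 0.74 for *Isg15*, 0.47 to 1.15 for *Usp18*, 0.29 to 0.74 for *Rsad2*, 0.026 to 0.30 for *Parp14*, 0.087 to 0.39 for *Gbp7*, 0.30 to 0.86 for *Igtp*, 0.055 to 0.35 for *Irgm2*, and −0.40 to −0.019 for *Xaf1*. The cause of these turns was not tested. The count of genes with a promoter peak was 3 in a window from 1 kb upstream to 100 bp downstream (added after seeing the data), where 9.11% of all RefSeq genes had one, 8 in a window of 5 kb, and 7 in a window of 1 kb, by the summit, and at a q of at most 0.001. No pairing of the aortas by replicate number was seen, as same-numbered deviations correlated at −0.0246, −0.0700, and −0.00896. Whether same-numbered aortas were handled together is not given in the labels. With the replicate number as a block, 184 genes and 0 interferon-stimulated genes were called.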
